A study of Mus musculus with 6 samples.

Results

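The 6 peroxiredoxins, both thioredoxins, cytosolic thioredoxin reductase and sulfiredoxin were followed through mouse blastocysts that had developed in medium holding vesicles from human Fallopian tubes. The genes are Prdx1, Prdx2, Prdx3, Prdx4, Prdx5, Prdx6, Txn1, Txn2, Txnrd1 and Srxn1. They were found by matching the Ensembl identifiers of the deposited expression table to these symbols in GENCODE M21, which gave 10 rows of 55774. The libraries fall into 2 groups of 3, and each was made from RNA of 10 pooled blastocysts. Embryos were taken at the 2-cell stage from the oviducts of ICR females, were of wild-type (WT) genotype, and were grown in CZB medium to the blastocyst stage. In the oEV-EMT group the medium held oviductal extracellular vesicles from women with endometriosis. In the oEV-ctrl group the vesicles came from women without endometriosis, for whom the sample labels name uterine fibroids and the study's methods name another gynaecological condition. Both groups received vesicles, so no library here shows embryos grown without them. Nothing in the labels says whether libraries of a group came from separate cultures, so every p-value below measures only the spread between these libraries. The values are FPKM, fragments scaled to the length of the transcript and the size of the library. Being per length, they can be compared between genes only roughly, as several genes have transcripts of unlike length and some share sequence with copies.

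Peroxiredoxins are abundant peroxidases that reduce hydrogen peroxide, organic peroxides and peroxynitrite through a reactive cysteine. In the typical members (PRDX1 to PRDX4) and in PRDX5 the oxidised cysteine forms a disulfide that thioredoxin, or an equivalent thiol donor in the secretory pathway, reduces again. Thioredoxin is in turn recharged by thioredoxin reductase, a selenoprotein that draws its electrons from NADPH, and sulfiredoxin rescues typical peroxiredoxins whose cysteine has been oxidised too far. PRDX3, PRDX5 and TXN2 work in mitochondria, PRDX4 in the endoplasmic reticulum, and PRDX1, PRDX2, TXN1 and TXNRD1 mainly in the cytosol. PRDX6 carries a single conserved cysteine, is recharged mainly through glutathione, and also has phospholipase A2 activity. Early embryos handle the peroxide of their own respiration with these enzymes, and genes such as Srxn1, Txnrd1 and Prdx1 are textbook targets of the stress factor NRF2, which binds antioxidant response elements (ARE) near their starts.

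The promoters of 4 of these genes are printed here because a search for ARE letters matched some of the genes and not others. RefSeq windows on GRCm38.p6, of 250 bases before and 50 after a transcript start, were given for 9 of the 10 genes in 11 windows, with none for Prdx6. Only the longest stretch before each start that holds no annotated exon is printed, 5′ to 3′ on the gene's own strand. Capitals mark matches on either strand to the ARE core TGACNNNGC or to the AP-1 letters TGANTCA. The Prdx1 stretch is chr4:116685349-116685543 (+), that of Srxn1 is chr2:152105274-152105515 (+), that of the Txnrd1 start with a match is chr10:82859009-82859178 (+), and that of Txn2, which had no match, is chr15:77929007-77929244 (-).
Prdx1: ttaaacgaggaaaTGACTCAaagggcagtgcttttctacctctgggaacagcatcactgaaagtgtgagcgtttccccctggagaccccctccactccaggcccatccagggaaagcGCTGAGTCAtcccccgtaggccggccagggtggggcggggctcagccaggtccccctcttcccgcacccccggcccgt
Srxn1: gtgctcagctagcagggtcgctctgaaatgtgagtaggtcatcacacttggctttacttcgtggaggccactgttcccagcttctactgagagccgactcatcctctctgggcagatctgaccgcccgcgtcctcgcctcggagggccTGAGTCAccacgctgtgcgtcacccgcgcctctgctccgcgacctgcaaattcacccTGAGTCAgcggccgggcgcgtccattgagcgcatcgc
Txnrd1: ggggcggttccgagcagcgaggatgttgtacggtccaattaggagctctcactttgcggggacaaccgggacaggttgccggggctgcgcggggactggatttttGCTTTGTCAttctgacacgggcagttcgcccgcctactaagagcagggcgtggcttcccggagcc
Txn2: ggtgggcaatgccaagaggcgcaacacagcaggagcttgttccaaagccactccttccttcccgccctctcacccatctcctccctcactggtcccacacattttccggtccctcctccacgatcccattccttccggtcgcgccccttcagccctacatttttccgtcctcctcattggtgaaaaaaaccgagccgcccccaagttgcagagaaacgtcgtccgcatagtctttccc
The ARE core occurred in 3 of the 11 windows, in Prdx1 at -133, Txnrd1 at -92 and Srxn1 at +29 from the start, and in 12.4% of all 32851 mouse promoter windows. The match of Srxn1 lies after the start, outside the printed stretch. The letters TGAGTCAGC at -45 in Srxn1 hold G where this core has C, so the search for the core did not count them. AP-1 letters stood at -237 and -131 in Prdx1 and at -102 and -45 in Srxn1, in no other of the 9 genes, and in 7.81% of all windows. In Prdx1 the match at -131 lies inside the ARE core. The joint letters TGANTCAGC, searched after these windows had been read, occurred once in each of those 2 windows and in 1.19% of all windows. The GC box GGGCGG was in 9 of the 11 windows, all but 2 of the 3 windows of Txnrd1, against 35.7% of all windows. CCAAT was in 3 of the 11, those of Prdx4, Txn2 and 1 of Txnrd1, against 37.4%, and the E-box CACGTG was in that of Prdx4 alone against 7.15%. These matches describe letters in a window and do not show that a factor binds there.

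The libraries resembled each other closely across genes, with Pearson correlations of log2(FPKM + 1) from 0.956 to 0.982 within groups and from 0.954 to 0.974 between groups. From the smallest steps between low values, a library held an estimated 17800000 to 36800000 fragments. The largest entry without a gene annotation took 15.3% to 19.0% of the summed FPKM in oEV-EMT and 19.7% to 31.5% in oEV-ctrl, so the groups did not overlap in it. All 6 trophectoderm markers were present, with summed levels of 3097 to 4716 FPKM in oEV-EMT and 3059 to 4808 in oEV-ctrl. The 4 epiblast markers summed to 77.7 to 94.0 and to 29.6 to 57.4 FPKM, with Nanog, Pou5f1 and Fgf4 higher in every oEV-EMT library and Sox2 overlapping. By comparison, 18.1% of all tested genes were higher in oEV-EMT without overlap. The 4 primitive endoderm markers summed to 26.7 to 40.9 and to 28.0 to 33.9 FPKM, most of it Gata6. Among them Gata4 was higher in every oEV-EMT library (7.46 to 11.3 against 4.17 to 5.07 FPKM), Sox17 had an unadjusted p of 0.0407 in the same direction with overlap (limma), and Gata6 and Pdgfra overlapped. The 4 oocyte markers, with Oosp1 at 0, summed to 3.84 to 6.93 and to 2.34 to 3.29 FPKM, without overlap. Zp3 was higher in every oEV-EMT library (1.08 to 1.61 against 0.120 to 0.792 FPKM), and Zp2 and Gdf9 overlapped. Cumulus markers reached at most 0.344 FPKM (Ptx3 and Amh at 0), oviduct epithelium markers 0.296 (Foxj1 at 0) and blood markers 2.22 (Hbb-bs and Ptprc at 0). The part that epiblast or primitive endoderm share, oocyte RNA or the unannotated entry played in the differences below was not tested. In these pooled embryos a lower share of a cell type and less RNA per cell cannot be told apart.

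Prdx1 and Txn1 stood far above the rest in both groups. Prdx1 averaged 1352 ± 331 FPKM under oEV-EMT against 1216 ± 182 under oEV-ctrl (SD, n = 3 each), and ranked at the 99.0th percentile of the 11924 genes tested. Txn1 averaged 979 ± 151 and 1018 ± 116 FPKM (SD, n = 3 each), at the 98.7th percentile. The next gene in order lay 4.06 times below Txn1 in oEV-EMT and 5.75 times below it in oEV-ctrl. Between them and Txnrd1 came a group of 6 genes, Prdx5, Prdx6, Prdx2, Prdx4, Txn2 and Prdx3, whose percentiles ran from 94.2 down to 88.4. The pair that maintains the cycle was the lowest of these genes, with Txnrd1 at the 63.8th percentile of all tested genes and Srxn1 at the 39.3rd.

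**Figure D1:**
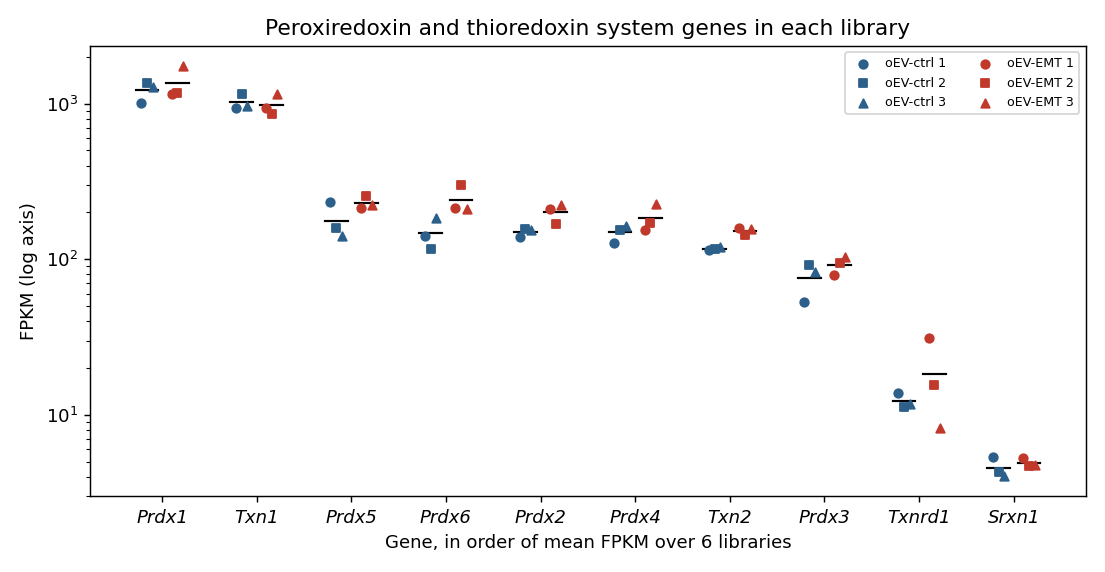
Level of each of the 10 genes in FPKM on a log axis, with genes in order of their mean over the 6 libraries. Points are single libraries (blue oEV-ctrl, red oEV-EMT) and bars are group means; Prdx1 and Txn1 lie between 856 and 1735 FPKM and Srxn1 between 4.06 and 5.34 in every library, and the red points of Prdx2, Prdx6 and Txn2 all lie above the blue ones.

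In oEV-EMT the order was Prdx1, Txn1, Prdx6, Prdx5, Prdx2, Prdx4, Txn2, Prdx3, Txnrd1 and Srxn1. The ranges of neighbours overlapped for every step from Prdx6 down to Txn2, and the other steps were clear of each other. In oEV-ctrl the order was Prdx1, Txn1, Prdx5, Prdx2, Prdx4, Prdx6, Txn2, Prdx3, Txnrd1 and Srxn1. There Prdx1 and Txn1 overlapped as well, as did each step from Prdx5 to Txn2. Prdx6 held place 3 in one order and place 6 in the other, but its range overlapped that of Prdx5 below it in oEV-EMT and those of Prdx4 and Txn2 on either side in oEV-ctrl.

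The study's thresholds were an adjusted p of 0.05 or less together with a log2 change of 1 or more in either direction. No tested gene passed both here (limma on log2(FPKM + 1), Benjamini-Hochberg over 11924 genes, 0% called). The smallest adjusted p of any gene was 0.0934. The study applied its thresholds with another test, DESeq2, and did report genes past them. At an unadjusted p of at most 0.05 there were 1831 genes (15.4%), of which 1527 were higher in oEV-EMT (12.8%) and 304 lower (2.55%). Of the 10 genes 1, Prdx6, was past this mark, in the higher direction, beside that background of 12.8%. For 3 of the 10, Prdx2, Prdx6 and Txn2, the values of the groups did not overlap, which was so for 22.4% of all genes. All 3 were higher in oEV-EMT, against 18.1% of all genes, and none was lower, against 4.34%. Of the 10 genes 9 had a log2 fold change above 0 (70.1% of all genes), and 7 lay above the median of all genes (50% by definition). Leaving out oEV-ctrl 2 left none of the 10 at an unadjusted p of at most 0.05 (limma). Leaving out oEV-ctrl 1 (Prdx5 and Prdx6) or oEV-EMT 3 (Prdx6 and Txnrd1) gave 2. The number without overlap was 5 without oEV-ctrl 1 or oEV-EMT 1, but with a library fewer the groups of any gene overlap less often. Shares of all genes were not computed for these fits, so the counts have no background beside them. Without oEV-EMT 2 Prdx6 had an unadjusted p of 0.0552 and Prdx2 one of 0.0337 (limma), so the count stayed at 1 with another gene.

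That median was itself 0.17, with quartiles of -0.051 and 0.40, so values are given here as the fitted difference in log2(FPKM + 1), oEV-EMT minus oEV-ctrl, and where it matters relative to 0.17. The median difference of the 10 genes was 0.33, or 0.16 above that of all genes. When libraries were scaled by the median of gene ratios the median of all genes was 0.0099, and higher genes made up 50.1% of those with an unadjusted p of at most 0.05 in place of 83.4%. Under that scaling Prdx6 and Txn2 were higher without overlap, beside 9.85% of all genes higher and 10.3% lower without overlap. Prdx6 alone of the 10 had an unadjusted p of at most 0.05, 0.0490 (limma, adjusted p = 0.386), beside 6.43% of all genes higher. Scaling by the upper quartile left Prdx6 alone without overlap, higher, beside 7.59% of all genes higher and 12.5% lower.

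**Figure D2:**
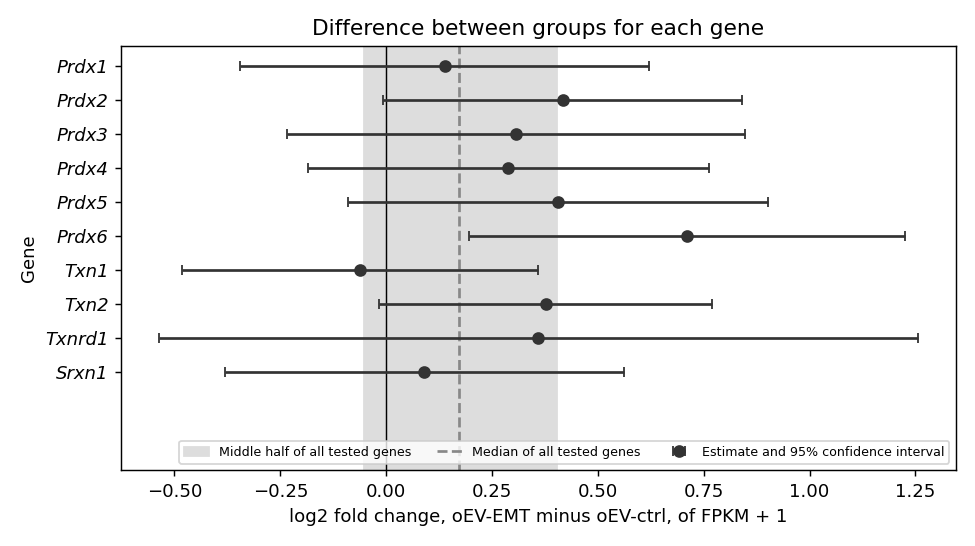
Fitted log2 fold change of FPKM + 1, oEV-EMT minus oEV-ctrl, for each gene, with its 95% confidence interval from limma. The grey band spans the quartiles of all tested genes (-0.051 to 0.40) and the dashed line their median (0.17); only the interval of Prdx6, from 0.20 to 1.23, lies wholly above 0.

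Among the cytosolic typical peroxiredoxins, Prdx1 (ENSMUSG00000028691, chr4:116685544-116700822, +) was measured at 1152, 1170 and 1735 FPKM in oEV-EMT 1, 2 and 3 and at 1009, 1349 and 1288 in oEV-ctrl 1, 2 and 3. The groups overlapped, and oEV-EMT 3 stood above every other library. The fitted difference was 0.14 (SE 0.22, 95% interval -0.35 to 0.62, limma adjusted p = 0.789). It was close to the median of all genes and turned negative under median-of-ratios scaling (-0.060) and without oEV-EMT 3 (-0.055). Prdx2 (ENSMUSG00000005161, chr8:84969587-84974834, +), abundant in red cells and neurons, read 211, 169 and 222 FPKM in oEV-EMT and 138, 156 and 154 in oEV-ctrl. Every oEV-EMT value lay above every oEV-ctrl value, with the nearest 2 at 169 and 156. The difference was 0.42 (SE 0.19, 95% interval -0.0084 to 0.84, limma adjusted p = 0.333), or 0.24 relative to all genes. The exact two-sided permutation test gave p = 0.1, the smallest that 3 against 3 libraries allow.

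Prdx4 (ENSMUSG00000025289, chrX:155323918-155340754, -), the peroxiredoxin of the endoplasmic reticulum that can pass oxidising power on to folding proteins, was at 154, 171 and 227 FPKM in oEV-EMT against 128, 155 and 165 in oEV-ctrl. The groups overlapped through oEV-EMT 1. Its difference was 0.29 (SE 0.21, limma adjusted p = 0.542). The mitochondrial Prdx3 (ENSMUSG00000024997, chr19:60864051-60874556, -) was at 78.6, 93.9 and 103 FPKM in oEV-EMT and 52.7, 91.9 and 82.4 in oEV-ctrl. The groups overlapped, and oEV-ctrl 1 stood apart at the low end. Its difference was 0.31 (SE 0.24, limma adjusted p = 0.575). Each of these 2 values moved with the libraries kept. Prdx3 was at 0.069 without oEV-ctrl 1, where the median of all genes was 0.15, and at 0.46 without oEV-ctrl 2. Prdx4 was at 0.13 without oEV-EMT 3, where that median was 0.21. It was at 0.18 without oEV-ctrl 1 and at 0.41 without oEV-EMT 1.

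Prdx5 (ENSMUSG00000024953, chr19:6906697-6910106, -), which is found in mitochondria, peroxisomes and cytosol, was at 212, 255 and 224 FPKM in oEV-EMT and 232, 159 and 140 in oEV-ctrl. Here oEV-ctrl 1 was the highest of its group and reached into the oEV-EMT range, while the other 2 control libraries lay well below. The difference was 0.41 (SE 0.22, 95% interval -0.090 to 0.90, limma adjusted p = 0.409). It was 0.61 without oEV-ctrl 1, with an unadjusted p of 0.0160 (limma adjusted p = 0.440), and 0.26 without oEV-ctrl 3. Prdx6 (ENSMUSG00000026701, chr1:161240112-161251219, -) was at 212, 299 and 212 FPKM in oEV-EMT and 142, 117 and 184 in oEV-ctrl. The groups did not overlap, and oEV-EMT 2 was the highest library. Mean levels were 241 ± 50.1 (SD, n = 3) and 147 ± 33.7 (SD, n = 3), 1.64-fold apart. The fitted difference of 0.71 (SE 0.23, 95% interval 0.20 to 1.23) ranked at the 92.7th percentile of all genes, with an unadjusted p of 0.0115 and an adjusted p of 0.211 (limma). Relative to all genes it was 0.54, and it ran from 0.45 to 0.88 over the alternatives tried, with adjusted p from 0.0730 to 0.653. Its exact two-sided permutation p was 0.1.

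Of the 2 thioredoxins, cytosolic Txn1 (ENSMUSG00000028367, chr4:57943373-57956411, -) was at 934, 856 and 1147 FPKM in oEV-EMT and 934, 1150 and 972 in oEV-ctrl. The groups covered largely the same range. The difference was -0.062 (SE 0.19, 95% interval -0.48 to 0.36, limma adjusted p = 0.896), and it was 0.048 when libraries were scaled to their total over annotated genes. Mitochondrial Txn2 (ENSMUSG00000005354, chr15:77915047-77929006, -) was at 159, 143 and 156 FPKM in oEV-EMT and 115, 116 and 120 in oEV-ctrl. The groups did not overlap, and its libraries lay close together, with SDs of 8.18 and 2.87 FPKM and the lowest SE of the 10 genes. The difference was 0.38 (SE 0.18, 95% interval -0.017 to 0.77, limma adjusted p = 0.343), or 0.21 relative to all genes, and the exact two-sided permutation test gave p = 0.1.

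The ratio of Txn2 to Txn1 within a library does not depend on how libraries are scaled. It was 0.170, 0.167 and 0.136 in oEV-EMT and 0.123, 0.101 and 0.124 in oEV-ctrl. All oEV-EMT ratios were the higher ones, by 0.44 in log2 (exact two-sided permutation p = 0.1, 0.467 after Benjamini-Hochberg adjustment over 7 ratios). Txn1 made up 86.4% ± 1.43 of the summed thioredoxin FPKM under oEV-EMT against 89.6% ± 1.08 under oEV-ctrl (SD, n = 3 each). The other 6 ratios overlapped between groups, among them Prdx1 to Txn1 (exact permutation p = 0.2), Prdx6 to Prdx1 (p = 0.3, exact permutation) and Prdx3 to Txn2 (p = 0.8, exact permutation).

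Txnrd1 (ENSMUSG00000020250, chr10:82833951-82897712, +), which recharges Txn1 with electrons from NADPH, was the least even of the 10. It was at 31.2, 15.4 and 8.19 FPKM in oEV-EMT and 13.8, 11.2 and 11.8 in oEV-ctrl. The oEV-EMT libraries held both the highest and the lowest value. The difference was 0.36 (SE 0.40, 95% interval -0.54 to 1.26, limma adjusted p = 0.695), and its SE ranked at the 94.6th percentile of all genes. It was -0.10 without oEV-EMT 1 and 0.80 without oEV-EMT 3, where the unadjusted p was 0.0284 (limma adjusted p = 0.262). The same order, highest in oEV-EMT 1 and lowest in oEV-EMT 3, was found in 31.1% of all tested genes. The ratio of Txn1 to Txnrd1 FPKM was 29.9, 55.4 and 140 in oEV-EMT and 67.8, 102 and 82.5 in oEV-ctrl. Srxn1 (ENSMUSG00000032802, chr2:152105516-152111376, +), the repair enzyme for overoxidised peroxiredoxins, was at 5.24, 4.68 and 4.74 FPKM in oEV-EMT and 5.34, 4.26 and 4.06 in oEV-ctrl. The groups overlapped and the difference was 0.090 (SE 0.21, 95% interval -0.38 to 0.56, limma adjusted p = 0.862), with the sign turning (-0.074) under median-of-ratios scaling. A library held an estimated 36 to 72 fragments of Srxn1 if its shortest transcript was the one expressed and 267 to 541 if the longest was.

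Within the peroxiredoxins, Prdx1 supplied most of the transcript in every library. Its share of the summed FPKM of all 6 was 57.0%, 54.2% and 63.7% in oEV-EMT and 59.3%, 66.5% and 64.0% in oEV-ctrl. Prdx3 supplied the least, from 3.10% to 4.53% over the 6 libraries. Prdx6 made up 10.5%, 13.8% and 7.77% in oEV-EMT and 8.32%, 5.76% and 9.11% in oEV-ctrl, so that its share overlapped between groups although its level did not. The shares of the other members overlapped too. The summed peroxiredoxin level was 2020, 2157 and 2722 FPKM in oEV-EMT and 1701, 2028 and 2014 in oEV-ctrl, and these ranges met between 2020 and 2028.

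**Figure D3:**
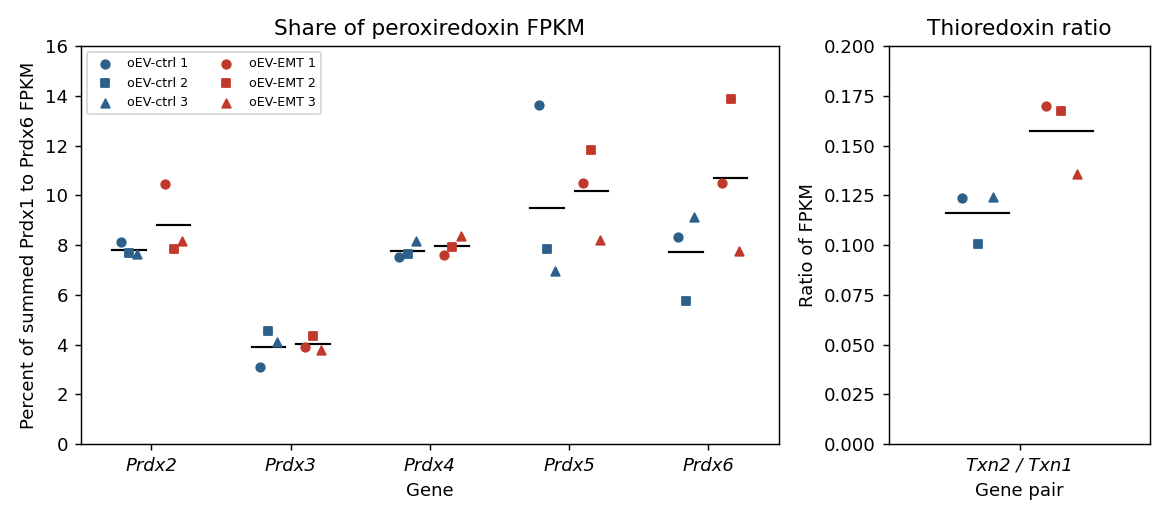
Left, percent of the summed Prdx1 to Prdx6 FPKM taken by each peroxiredoxin other than Prdx1 in each library, where all shares overlap between groups. Right, ratio of Txn2 to Txn1 FPKM in each library, 0.136 to 0.170 in oEV-EMT and 0.101 to 0.124 in oEV-ctrl; points are libraries (blue oEV-ctrl, red oEV-EMT) and bars are group means.

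The genes did not rank the libraries alike. Library oEV-EMT 3 was the highest of its group for Prdx1, Prdx2, Prdx3, Prdx4 and Txn1, oEV-EMT 1 for Txn2, Txnrd1 and Srxn1, and oEV-EMT 2 for Prdx5 and Prdx6. Among the controls, oEV-ctrl 1 was the lowest for 6 of the 10 genes and the highest for Prdx5, Txnrd1 and Srxn1. That library also had the lowest estimated depth, 17800000 fragments, and the largest share of FPKM in an unannotated entry, 31.5%. Without it the differences were 0.0095 for Prdx1, 0.36 for Prdx2, 0.069 for Prdx3, 0.18 for Prdx4, 0.61 for Prdx5, 0.69 for Prdx6, -0.12 for Txn1, 0.37 for Txn2, 0.44 for Txnrd1 and 0.19 for Srxn1. Prdx1 and Prdx3 then lay near 0, while Prdx5, Txn1, Txnrd1 and Srxn1 lay further from it.

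Some reads of these genes could belong to copies or neighbours. Prdx1 shared 50-base stretches with the processed pseudogenes Gm21399 (30.7% of the pseudogene's stretches) and Gm7204 (25.9%), which were listed at up to 156 and 21.5 FPKM, and Prdx1 held 89.4% to 91.7% of the sum of the 3. Prdx2 shared such stretches with Tdpx-ps1, listed at 4.50 to 19.9 FPKM, and held 89.4% to 97.0% of their sum. Adding the copies to the gene gave differences of 0.15 for Prdx1 and 0.44 for Prdx2. Prdx5 overlaps Trmt112 on the opposite strand by 409 bases, and Trmt112 was at 29.8, 27.4 and 22.5 FPKM in oEV-EMT and 15.4, 24.1 and 21.7 in oEV-ctrl. Summed with Trmt112, Prdx5 differed by 0.40. Prdx2 overlaps Rnaseh2a by 181 bases and Junb by 351 bases on the opposite strand. Since the strand setting of the counting is not given in the sources used here, reads from these overlaps cannot be assigned with certainty. The other 7 genes shared under 10% of stretches with any listed gene.

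The remaining genes around the cycle were read from fixed lists. No gene of any list had an adjusted p of at most 0.05. Of the 21 tested thioredoxin-like proteins and partners (of 23 listed), 3 were higher at an unadjusted p of at most 0.05 and none lower, beside 12.8% and 2.55% of all genes. These were Glrx, cytosolic glutaredoxin (0.86, adjusted p = 0.222), Tmx2, a thioredoxin-related membrane protein (0.70, adjusted p = 0.241), and Txndc12, a thioredoxin-domain protein of the endoplasmic reticulum (0.55, adjusted p = 0.254), all by limma. Under median-of-ratios scaling none was higher, beside 6.43% of all genes. Txnrd2, the mitochondrial reductase that serves TXN2, was at 3.32, 5.16 and 5.75 FPKM in oEV-EMT and 5.24, 1.96 and 4.12 in oEV-ctrl, which overlapped (0.31, limma adjusted p = 0.664). Txnip, which binds and inhibits thioredoxin, was at 97.0, 43.0 and 51.1 in oEV-EMT and 50.4, 46.1 and 59.6 in oEV-ctrl, which also overlapped (0.21, limma adjusted p = 0.765).

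Upstream of thioredoxin reductase, 5 of the 14 genes listed for NADPH supply, which make NADPH or its precursors or run in the pentose phosphate pathway, were higher at an unadjusted p of at most 0.05 and none lower, beside 12.8% and 2.55% of all genes. Under median-of-ratios scaling the list had 2 higher and none lower, beside 6.43% and 6.4% of all genes. The lowest p-values belonged to Nadk, the cytosolic NAD kinase (0.81, adjusted p = 0.164), Idh1, cytosolic NADP-dependent isocitrate dehydrogenase (0.78, adjusted p = 0.174), and Pgls, the lactonase of the pentose phosphate pathway (0.52, adjusted p = 0.263), by limma. Nadk ranged from 31.4 to 41.0 FPKM in oEV-EMT and from 17.7 to 25.3 in oEV-ctrl, without overlap. The median difference of the list was 0.38 beside 0.17 for all genes. Of the 8 genes for selenoprotein synthesis, needed for the selenocysteine of the reductases, 1 was higher (12.8% of all genes), Eefsec (0.50, limma adjusted p = 0.313), with a list median of 0.26. Under median-of-ratios scaling none was higher (6.43% of all genes). Downstream, 2 of 9 tested thioredoxin clients (of 11 listed) were higher (12.8% of all genes), Msrb1, a methionine sulfoxide reductase (0.70, limma adjusted p = 0.194), and Rrm2, a subunit of ribonucleotide reductase (0.71, limma adjusted p = 0.285). None was lower (2.55% of all genes), the list median was 0.11, and 1 was higher under median-of-ratios scaling (6.43% of all genes).

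The 10 regulators of the NRF2 pathway had a median difference of -0.21, below that of all genes. The list holds both NRF2 itself and its inhibitor, so this median gives no direction for the pathway. At an unadjusted p of at most 0.05 none was higher (12.8% of all genes) and 1 lower (2.55% of all genes), Nfe2l1, a related factor (-0.79, limma adjusted p = 0.293). Under median-of-ratios scaling 3 were lower, beside 6.4% of all genes. Nfe2l2, which encodes NRF2, was at 89.3, 65.4 and 67.6 FPKM in oEV-EMT and 45.5, 52.1 and 62.8 in oEV-ctrl. Its groups did not overlap (0.46, limma adjusted p = 0.343). Keap1, its inhibitor, was at 4.10, 4.08 and 2.86 FPKM in oEV-EMT and 6.88, 4.14 and 4.45 in oEV-ctrl, lower without overlap but by a narrow margin (-0.38, limma adjusted p = 0.488). Keap1 was singled out after its values were seen. Cul3, also on the list, was lower without overlap too (-0.28, limma adjusted p = 0.541). In the whole list 1 gene was higher without overlap and 2 lower, beside 18.1% and 4.34% of all genes.

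In oxidative protein folding, where PRDX4 acts, 2 of 10 tested genes (of 11 listed) were higher at an unadjusted p of at most 0.05 and none lower, beside 12.8% and 2.55% of all genes. Under median-of-ratios scaling 1 was higher and 1 lower, beside 6.43% and 6.4%. The 2 were the disulfide isomerases Pdia3 (0.90, limma adjusted p = 0.164) and Pdia4 (0.59, limma adjusted p = 0.269), and the list median was 0.29. Among other peroxide-handling enzymes 3 of 11 tested (of 13 listed) were higher and none lower, beside 12.8% and 2.55% of all genes, with a median of 0.26. Under median-of-ratios scaling 2 were higher, beside 6.43%. The 3 higher as deposited were Hmox1, heme oxygenase 1 (0.73, limma adjusted p = 0.214), Nqo1, a quinone reductase (0.70, limma adjusted p = 0.232), and Cat, catalase (0.64, limma adjusted p = 0.267). Only Cat of these breaks down peroxide. The peroxidases Gpx1 (-0.25, limma adjusted p = 0.638), Gpx3 (0.67, limma adjusted p = 0.338) and Gpx4 (0.084, limma adjusted p = 0.873) were not past the mark.

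**Figure D4:**
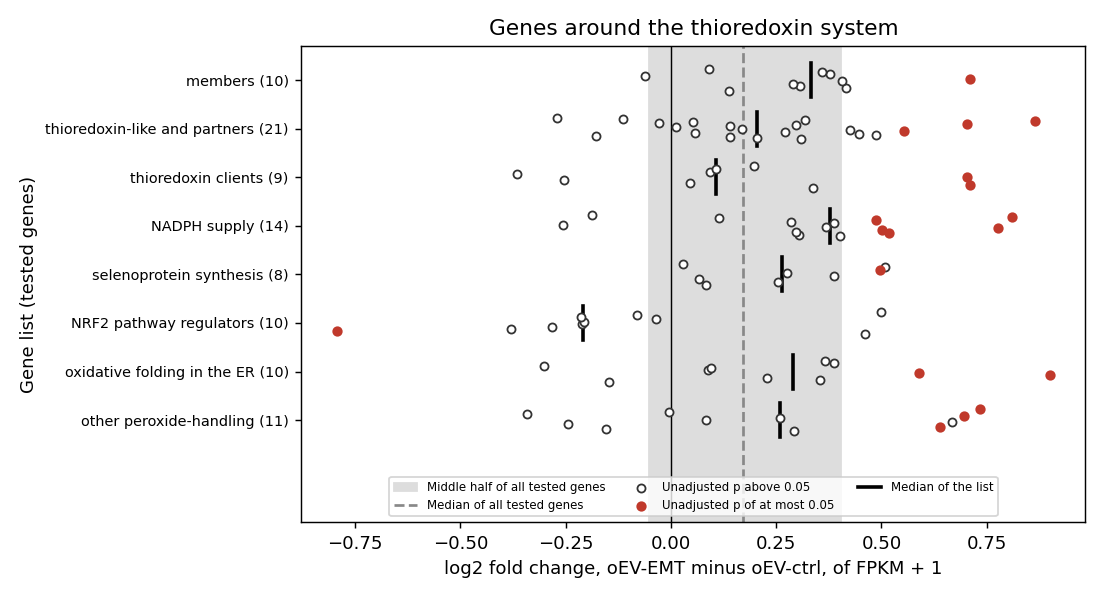
Log2 fold change of FPKM + 1, oEV-EMT minus oEV-ctrl, of the tested genes of each list, with the list's number of tested genes in brackets. Filled red points have an unadjusted p of at most 0.05 (limma), and short bars are list medians. The grey band and dashed line are the quartiles (-0.051 to 0.40) and median (0.17) of all genes. The regulators of NRF2 have the only median below 0, -0.21, in a list that holds both Nfe2l2 and its inhibitor Keap1.

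Genes whose course over the 6 libraries was nearest to each of the 3 genes with the lowest unadjusted p were found by the root-mean-square difference of centred log2(FPKM + 1). For Prdx6 these were Plekhj1 (0.0580), Id3 (0.0723) and Rnaseh2c (0.0870). For Prdx2 they were Psmd5 (0.0248), A930029G22Rik (0.0498) and 4921524J17Rik (0.0539), and for Txn2 they were Bcl2l11 (0.0243), Tubgcp4 (0.0359) and Vps35l (0.0431). Id3, an inhibitor of basic helix-loop-helix factors, was at 25.5, 34.1 and 24.4 FPKM in oEV-EMT and 18.1, 13.3 and 20.1 in oEV-ctrl, so it shared with Prdx6 the peak in oEV-EMT 2 and the trough in oEV-ctrl 2. Over 6 libraries many genes can run alike, and these matches are a description only.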

How the data were processed

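Poly(A)-selected RNA of pooled blastocysts was sequenced in pairs of reads by the study. The deposited table holds 1 FPKM value per gene and library, made by the authors with StringTie on mm10. Although the methods name TPM, the columns' sums differ, which those of TPM do not. The aligner and strand setting are not given in the sources used here. Of 55774 rows, 55141 matched GENCODE M21 and 287 had no gene identifier.

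Genes with at least 1 FPKM in at least 3 libraries (11924) were tested on log2(FPKM + 1) with limma 3.58.1 in R 4.3.3, with trended, robust variance and Benjamini-Hochberg adjustment over all tested genes. A fold change on this scale understates the change of low genes. Means of single genes were compared by exact two-sided permutation. All 10 genes passed the filter and are named with every library. Of each list, the up to 3 lowest unadjusted p of at most 0.05 are named, with Txnrd2, Txnip and Nfe2l2, and 3 nearest courses for each of 3 genes. The genes and lists were chosen with earlier results of these data known. Depth was estimated from the commonest smallest FPKM step per kilobase, taken as 1 fragment. Copies share at least 10% of their 50-base transcript stretches with a gene. The fit was tested on simulated data. There were 17 alternatives, among them other scalings, pseudocounts, filters, variance models and leaving out each library.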

Additional observations from a re-analysis of the deposited data

How the results depend on the processing

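Of 162 values of the 10 genes recomputed under 17 alternatives, 153 kept their sign and their side of the threshold, no gene reached an adjusted p of at most 0.05 in any, and 9 changed sign. These were Prdx1 (-0.060 with median-of-ratios scaling, -0.13 with upper quartile scaling, -0.055 without oEV-EMT 3 and up to 0.24 without oEV-EMT 1), Srxn1 (-0.074 with median-of-ratios and -0.13 with upper quartile scaling), Txn1 (0.048 with the total of annotated genes, and -0.18 to 0.030 with 1 library left out, above 0 without oEV-ctrl 2 or oEV-EMT 2) and Txnrd1 (-0.10 without oEV-EMT 1 to 0.80 without oEV-EMT 3). The cause was not tested. Without changing sign, leaving out 1 library also moved Prdx3 (0.069 without oEV-ctrl 1, 0.46 without oEV-ctrl 2), Prdx4 (0.18 without oEV-ctrl 1, 0.13 without oEV-EMT 3), Prdx5 (0.61 without oEV-ctrl 1, 0.26 without oEV-ctrl 3) and Srxn1 (0.026 without oEV-ctrl 3 to 0.19 without oEV-ctrl 1) by over 1.5 times. Genes past both thresholds, 0 in the main limma fit, numbered 104 with library weights and 21 with the replicate block. They numbered 0 to 17 when 1 library was left out (17 without oEV-ctrl 3, 4 without oEV-EMT 1, 1 without oEV-EMT 3). None of the 10 was among them. These counts are small beside the 11924 genes tested, so most sets of 10 genes would hold none. Deviations of same-numbered libraries correlated at 0.119, -0.0442 and 0.0388, and those of differently numbered libraries at -0.135 to 0.122. Such correlations cannot tell whether libraries of the same number were handled together, and the labels do not say. Of the 10 genes, 1 had an unadjusted p of at most 0.05. With upper quartile scaling there were 0, beside 4.61% of all genes higher and 8.08% lower. With the total of annotated genes there were 4, beside 17.4% higher and 1.53% lower. The count was 2 with no filter, 2 with library weights and 0 to 2 with 1 library left out (0 without oEV-ctrl 2). For these last settings the shares of all genes were not computed. The 3 genes without overlap became 1 with upper quartile scaling, beside 7.59% of all genes higher and 12.5% lower. They became 5 with the total of annotated genes, beside 23.5% higher and 2.55% lower. With 1 library left out they were 3 to 5, with no share of all genes computed. The median of the 10 relative to all genes, 0.16, was 0.31 with no filter, where the median of all genes was 0.023, and stayed above 0 in every alternative run (0.067 to 0.22 with 1 library left out). Srxn1 could not be tested under the filter of 5 FPKM. With 3 libraries a group, differences of the size fitted for Prdx2 or Txn2 had intervals that reached 0.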
